A study of Homo sapiens with 8 samples.

Results

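Genes for long intergenic noncoding RNAs, whose approved symbols begin with LINC, were described across 8 RNA-seq libraries of the human cell line SUM159, long established from a triple-negative breast carcinoma. They were the rows of the count table with such a symbol in GENCODE release 29 and a sum of 100 or more counts over the 8 libraries, which gave 168 of the 1890 LINC genes in the table. At least 1 count was found for 730 LINC genes, and 1160 had none. Just inside the limit were LINC00513 with 102 counts, and LINC02043 and LINC01550 with 103 counts each. Just outside it were LINC01534 and LINC02315 with 99 counts each and LINC00239 with 98. GENCODE classed 134 of the 168 as lincRNA, 14 as processed transcript, 8 as antisense and 6 as transcribed unprocessed pseudogene, so not every gene with a LINC symbol was intergenic.

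The libraries fall into 3 groups. The 3 lung-recovered libraries came from ITGB4-low clone 1 cells given to mice by tail vein, and the hosts were dosed through the trachea with bleomycin, which breaks DNA and injures lung tissue. Those lungs were dissociated, the suspension was held in dishes overnight, and tumour cells were sorted by their tdTomato fluorescence. The 3 ITGB4-low clone 1 libraries and the 2 ITGB4-high libraries came from cells grown in dishes. Every ITGB4-low library, lung-recovered ones included, derives from 1 clone, so what belongs to that clone and what to low ITGB4 cannot be told apart. Lung passage, bleomycin, overnight culture and sorting cannot be told apart either, because no library holds one without the others. ITGB4, the integrin beta-4 subunit, stood at 401, 376 and 407 CPM (counts scaled to library size, after TMM correction) in the lung-recovered libraries, at 5.29, 7.46 and 9.13 CPM in ITGB4-low clone 1 and at 420 and 376 CPM in ITGB4-high. The lung-recovered libraries thus overlapped those of ITGB4-high in this gene, although they are labelled as ITGB4-low clone 1.

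Long intergenic noncoding RNAs are transcribed by RNA polymerase II from their own loci, are usually spliced and often polyadenylated, and encode no known protein. Some act in the nucleus on chromatin or on genes beside them, and others bind proteins or microRNAs in the cytoplasm. They are typically less abundant than mRNAs and more restricted to particular cell types, and several have been studied in breast and other carcinomas for their link to invasion and growth.

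The libraries held 20.4 to 27.2 M counts. Polyadenylated RNA was captured, so noncoding RNAs without a poly(A) tail were not measured fully. Vimentin, CD44 and EGFR were abundant, PGR and CDH1 had no count, and ESR1 and EPCAM had at most 3 counts in any library, as is known for this line. Among markers of other lung cell types, SFTPA1 and SCGB1A1 of lung epithelium, CLDN5 of endothelium, CD3E and MS4A1 of lymphocytes and HBA1, HBA2 and HBB of erythroid cells had no count in any library, and SFTPC had at most 1 count. Other markers of the same lists were detected. AGER, of lung epithelium, averaged 0.787 CPM in lung-recovered cells, 0.767 CPM in ITGB4-low clone 1 and 0.904 CPM in ITGB4-high. NKX2-1, of the same list, averaged 0.0671, 1.04 and 0.0195 CPM in those groups. The summed level of the 6 lung epithelium markers was 0.709 to 1.18 CPM in lung-recovered libraries, 1.60 to 1.93 CPM in ITGB4-low clone 1 and 0.717 to 1.17 CPM in ITGB4-high. That of the 5 endothelium markers was 2.56 to 3.12 CPM in lung-recovered libraries, 3.11 to 4.97 CPM in ITGB4-low clone 1 and 3.12 to 3.89 CPM in ITGB4-high, mostly KDR, while PECAM1 averaged 0.373 CPM in lung-recovered cells, 0.139 CPM in ITGB4-low clone 1 and 0.0773 CPM in ITGB4-high. That of the 5 lung fibroblast markers, mostly PDGFRB and DCN, was 13.2 to 13.9 CPM in lung-recovered libraries, 13.7 to 17.5 CPM in ITGB4-low clone 1 and 8.69 to 9.62 CPM in ITGB4-high. The summed level of 7 macrophage and myeloid markers was 7.52 to 8.84 CPM in lung-recovered libraries, 6.36 to 6.61 CPM in ITGB4-low clone 1 and 3.43 to 4.79 CPM in ITGB4-high. CD68 made up the greater part of it, and PTPRC, the pan-leukocyte marker, averaged 0.781 CPM in lung-recovered cells, 0.864 CPM in ITGB4-low clone 1 and 0 in ITGB4-high. MARCO, of alveolar macrophages, averaged 1.46 CPM in lung-recovered cells, 0.788 CPM in ITGB4-low clone 1 and 0.725 CPM in ITGB4-high. Reads were aligned to the human build hg38, while the hosts were mice. Counts of these human genes, zeros included, therefore cannot show how much host RNA the lung-recovered libraries held. The part of other cells in the results was not tested.

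The 168 LINC genes together took 0.106 to 0.110% of the counts of lung-recovered libraries, 0.115 to 0.117% in ITGB4-low clone 1 and 0.103 to 0.107% in ITGB4-high. Their median was 470.5 counts over the 8 libraries, and 124 of them had under 1000. Per kilobase of merged exons, the scale on which different genes can be compared, and as the mean of the 3 group means, their median was 0.992 CPM per kb, against 6.01 CPM per kb for the 12475 protein-coding genes tested, and 13 LINC genes lay above that protein-coding median. The highest was LINC00958, also called bladder cancer associated transcript 2, at 36.1 CPM per kb. LINC02434 followed at 17.8, LINC00941 at 16.2, LINC00839 at 12.8, LINC01605 at 8.58, LINC01133 at 8.31, LINC00707 at 8.15, LINC02381 at 8.02, LINC02154 at 6.99 and LINC00339 at 6.69 CPM per kb. This order depends on the group, since LINC02154 stood at 0.779 CPM per kb in lung-recovered cells, 0.523 in ITGB4-low clone 1 and 19.7 in ITGB4-high, and LINC01133 at 10.2, 12.7 and 1.97 CPM per kb in the same groups. Exons of 61 of the 168 overlap those of another gene, and 21 carry a stretch nearly identical to a transcript of a gene elsewhere. Since the strand setting of the counting is not given in the sources used here, the counts of these genes are uncertain.

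The first comparison asks how dish-grown ITGB4-low clone 1 cells differ from ITGB4-high cells. Of the 168 LINC genes, 57 were higher and 24 were lower in ITGB4-low clone 1 at an adjusted p under 0.05 (edgeR quasi-likelihood test, Benjamini-Hochberg over all 15220 genes tested). Over all genes tested, 28.6% were higher and 27.6% lower, while the LINC genes were called higher at 33.9% and lower at 14.3%. The LINC genes were chosen by counts summed over all libraries, most of which derive from the clone. That choice can favour genes that are high in the clone, and the background genes passed a different filter. Background shares by direction were not taken at matched depth in any comparison, so whether LINC genes lean to 1 direction was not tested. In either direction 48.2% of LINC genes were called, against 56.2% of all genes. A change of at least 2-fold was found upwards in 33 LINC genes and downwards in 13, which is 19.6% and 7.74% of them, against 9.12% and 3.95% of all genes. The median log2 fold change was 0.13 over LINC genes and 0.00 over all genes, and the median size of the change, whatever its sign, was 0.47 over LINC genes and 0.30 over all genes on the log2 scale, without regard to depth. In bulk RNA, fewer cells that hold a transcript and less of it per cell cannot be told apart.

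Several LINC genes with many counts were higher in the ITGB4-low clone. Positions given with a gene are those of the whole GENCODE gene on hg38, introns included. LINC01133 (ENSG00000224259, chr1:159961218-159984750, plus strand), which has been studied in triple-negative breast cancer, had 35.2, 43.3 and 42.1 CPM in ITGB4-low clone 1, against 6.49 and 5.96 CPM in ITGB4-high. The groups lay far apart, with a log2 fold change of 2.69 ± 0.10 (SE; adjusted p = 3.07e-14). LINC00460 (ENSG00000233532, chr13:106374477-106384315, plus strand), linked in other carcinomas to epithelial-mesenchymal transition, had 23.4, 26.3 and 27.7 CPM in ITGB4-low clone 1, against 7.32 and 8.22 CPM in ITGB4-high, a log2 fold change of 1.73 ± 0.10 (adjusted p = 8.22e-12). LINC01605 had 17.3, 17.4 and 17.5 CPM against 5.02 and 5.07 CPM in ITGB4-high (log2 fold change 1.79 ± 0.10). All libraries of the clone lay above both ITGB4-high libraries in each of these genes, and replicates differed little. LINC01116 rose by 1.88 ± 0.12 on the log2 scale, but part of its exons is nearly identical to transcripts of 30 other genes. LINC00707, with 113, 96.6 and 99.8 CPM in ITGB4-low clone 1 and 49.1 and 48.1 CPM in ITGB4-high, also rose (log2 fold change 1.08 ± 0.07, adjusted p = 3.63e-11). Its exons overlap those of AL158210.2, AL392086.3 and AL392086.2 on the same strand.

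Among LINC genes with fewer counts, some rises were steeper. LINC02057 (ENSG00000249279, chr5:61201309-61264929, minus strand) had 8.89, 5.44 and 8.01 CPM in ITGB4-low clone 1, against 0.717 and 0.935 CPM in ITGB4-high (log2 fold change 3.17 ± 0.24, adjusted p = 1.05e-09). LINC02202 (ENSG00000245812, chr5:159100483-159117478, plus strand) had 0.923, 1.36 and 1.33 CPM in ITGB4-low clone 1, against 0.113 and 0.117 CPM in ITGB4-high (3.34 ± 0.49 on the log2 scale, adjusted p = 7.67e-06). LINC00702 had 0.971, 1.88 and 1.85 CPM in ITGB4-low clone 1, against 0.0754 and 0.156 CPM in ITGB4-high (3.72 ± 0.61, adjusted p = 3.35e-05). None of these groups overlapped, although standard errors were larger than those of the LINC genes with more counts. LINC00552, LINC01836 and LINC01619 rose by 2.88 ± 0.49, 2.66 ± 0.41 and 2.10 ± 0.37 on the log2 scale. LINC01619 shares 503 exon bases on the same strand with BTG1, an antiproliferative gene that rose by 0.90 ± 0.05, so its reads may be split between them. LINC01579 had no count in ITGB4-high and 62 counts in ITGB4-low clone 1, and was at least 16.1-fold higher there against a floor of 3 counts over the ITGB4-high libraries.

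**Figure D1:**
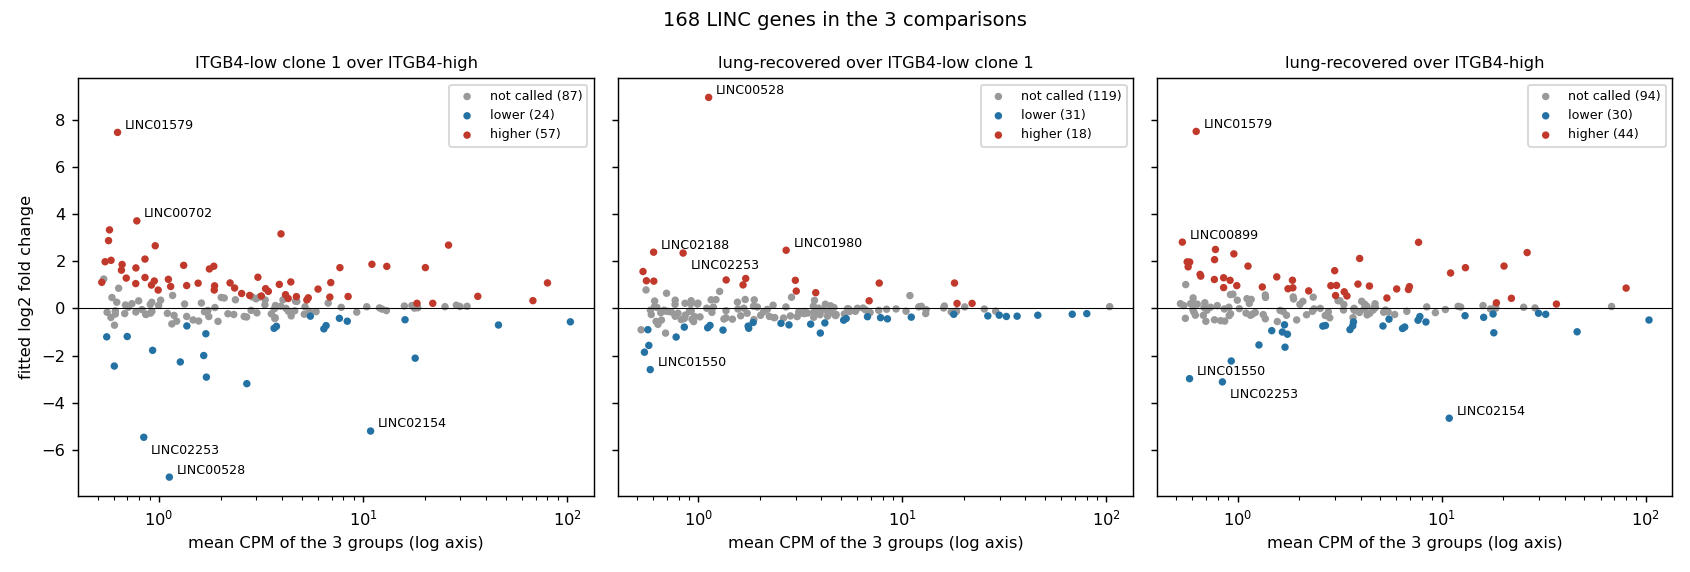
Fitted log2 fold change of the 168 LINC genes (vertical axis) against their mean level over the 3 groups in CPM (log axis), in the 3 comparisons, with genes called higher in red, lower in blue and not called in grey. In ITGB4-low clone 1 over ITGB4-high 57 genes are red and 24 blue, and the fitted values of LINC00528, LINC01579 and LINC02253 rest on a group with 3 counts or fewer, so their height is no measure of size.

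Fewer LINC genes were lower in ITGB4-low clone 1, and some of them by a wide margin. LINC02154 (ENSG00000235385, chrX:13266048-13303452, minus strand), on the X chromosome, had 0.437, 1.08 and 0.925 CPM in ITGB4-low clone 1, against 30.3 and 31.0 CPM in ITGB4-high, and fell by 5.21 ± 0.18 on the log2 scale (adjusted p = 4.62e-15). LINC01287 (ENSG00000234722, chr7:153355365-153413981, minus strand) had 6.17, 7.88 and 7.64 CPM in ITGB4-low clone 1, against 30.9 and 31.9 CPM in ITGB4-high (log2 fold change -2.11 ± 0.09, adjusted p = 2.1e-13). LINC01980 (ENSG00000225548, chr3:27797563-27931579, plus strand) had 0.583, 0.516 and 0.443 CPM in ITGB4-low clone 1, against 4.94 and 4.48 CPM in ITGB4-high (log2 fold change -3.20 ± 0.23, adjusted p = 3.8e-10). In all 3 genes the ITGB4-high libraries agreed closely and stood above every library of the clone. LINC02289, LINC02188 and LINC02466 fell by 2.92 ± 0.28, 2.45 ± 0.52 and 1.78 ± 0.33 on the log2 scale. LINC00632, the locus from which the circular RNA CDR1-AS derives, had 0.340, 0.422 and 0.724 CPM in ITGB4-low clone 1, against 2.56 and 2.38 CPM in ITGB4-high, a log2 fold change of -2.27 ± 0.30 for the gene as a whole. No circular form was measured. LINC02253 had 3 counts in the ITGB4-low clone 1 libraries and 116 in ITGB4-high, which made it 49.5-fold higher in ITGB4-high, with a 95% counting interval of 16.5 to 243. LINC00528 (ENSG00000269220, chr22:17777322-17779481, plus strand) had no count in the 3 libraries of the clone, against 39 counts in ITGB4-high. With a floor of 3 counts over the clone's libraries, it was at least 16.6-fold lower there.

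Some LINC genes with many counts moved less. LINC00958 had 90.9, 86.1 and 86.9 CPM in ITGB4-low clone 1, against 126 and 135 CPM in ITGB4-high (log2 fold change -0.57 ± 0.05, adjusted p = 9.7e-09). LINC00511, studied as a growth-promoting RNA in breast cancer, had 80.1, 76.2 and 75.6 CPM in ITGB4-low clone 1, against 61.3 and 61.6 CPM in ITGB4-high (log2 fold change 0.33 ± 0.05, adjusted p = 1.58e-05). Both differences were small and larger than the spread between libraries. LINC00662 rose by 0.51 ± 0.06 on the log2 scale. LINC00941 had a log2 fold change of 0.22 ± 0.08 (adjusted p = 0.0291). Its exons overlap those of AC010198.1 and of another GENCODE entry of the same symbol on the same strand. The call of LINC00941 ended without either ITGB4-high replicate, and without ITGB4-low replicate 2 or 3. LINC-PINT, a p53-induced RNA, LINC00467, LINC02434 and LINC00339 did not pass the test in this or either of the other comparisons. For LINC-PINT, the log2 fold change was 0.44 ± 0.23 (adjusted p = 0.11).

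As examples of start regions of LINC genes that differed between groups, the promoter windows of 5 are given, chosen after their values were seen, with LINC02202 among them for its start beside a coding gene. They come from RefSeq, build GRCh38.p14, each covering 250 bases before to 50 bases after the annotated start on the gene's strand. LINC00460 lies at chr13:106376314-106376613 (+ strand), LINC01133 at chr1:159960974-159961273 (+), LINC01287 at chr7:153412185-153412484 (-), LINC01980 at chr3:27797338-27797637 (+) and LINC02202 at chr5:159100233-159100532 (+). Capitals mark AP-1 motifs (TGANTCA) and CCAAT boxes (CCAAT, or ATTGG on the other strand), the letters of which a script found on either strand. The RefSeq start of LINC00460 and that of LINC01287 lie inside the GENCODE gene, so other starts of these genes are not shown.
LINC00460: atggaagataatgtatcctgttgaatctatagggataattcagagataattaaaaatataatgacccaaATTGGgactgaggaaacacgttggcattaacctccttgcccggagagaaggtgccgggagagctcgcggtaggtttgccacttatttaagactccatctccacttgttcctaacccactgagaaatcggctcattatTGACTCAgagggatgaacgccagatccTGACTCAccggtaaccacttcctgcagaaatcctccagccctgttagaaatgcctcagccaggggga
LINC01133: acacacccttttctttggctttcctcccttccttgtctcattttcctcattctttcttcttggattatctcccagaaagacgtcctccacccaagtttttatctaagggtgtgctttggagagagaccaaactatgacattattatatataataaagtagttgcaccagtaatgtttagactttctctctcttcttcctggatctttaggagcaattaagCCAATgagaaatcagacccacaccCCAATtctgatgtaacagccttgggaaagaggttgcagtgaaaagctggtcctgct
LINC01287: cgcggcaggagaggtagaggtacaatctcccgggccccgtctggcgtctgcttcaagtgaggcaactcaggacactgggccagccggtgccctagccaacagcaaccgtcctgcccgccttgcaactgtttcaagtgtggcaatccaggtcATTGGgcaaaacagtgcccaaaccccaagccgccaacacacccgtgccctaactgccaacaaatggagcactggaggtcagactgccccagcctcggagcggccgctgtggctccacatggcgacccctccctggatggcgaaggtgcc
LINC01980: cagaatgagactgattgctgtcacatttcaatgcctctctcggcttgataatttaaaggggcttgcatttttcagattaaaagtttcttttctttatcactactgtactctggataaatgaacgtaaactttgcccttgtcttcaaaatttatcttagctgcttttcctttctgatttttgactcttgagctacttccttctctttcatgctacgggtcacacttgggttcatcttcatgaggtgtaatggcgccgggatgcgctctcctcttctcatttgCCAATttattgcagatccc
LINC02202: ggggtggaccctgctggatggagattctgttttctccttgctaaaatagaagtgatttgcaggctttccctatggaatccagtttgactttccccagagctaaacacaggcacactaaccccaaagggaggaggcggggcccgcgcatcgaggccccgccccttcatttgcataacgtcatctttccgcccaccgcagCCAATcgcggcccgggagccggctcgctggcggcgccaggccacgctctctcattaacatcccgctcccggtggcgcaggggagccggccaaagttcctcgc
LINC00460 was the only one of these 5 windows with the AP-1 motif, which it held at 2 places, and LINC01133 held 2 CCAAT boxes. The other 4 held 1 CCAAT box each. Of the 168 LINC genes, 106 had a promoter window in the table. The AP-1 motif stood in 13 of these (12.3%), against 7.76% of all 27305 promoters of the same length. Among the 13, the windows of LINC-PINT and LINC00513 overlap on opposite strands, each with 2 matches, and were counted separately. The CCAAT box stood in 49.1% of LINC gene windows against 35.7%. The E-box CACCTG, which ZEB and SNAI factors bind, stood in 19.8% against 20.6%, and the TATA box TATAAA in 13.2% against 12%. Median GC content was 58.2% in LINC gene windows and 58.3% in all promoters. These are matches of letters in 1 window per gene and show no binding.

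The second comparison sets lung-recovered cells against the dish-grown ITGB4-low clone 1 from which they came. Of the LINC genes, 18 were higher and 31 lower in lung-recovered cells, which is 10.7% and 18.5%, against 14.7% and 15.4% of all genes. In either direction 29.2% were called, against 30.1% of all genes, so the share of LINC genes called was near the background. At 2-fold or more, 12 were higher and 5 lower (7.14% and 2.98%), against 3.2% and 2.31% of all genes. The median log2 fold change was -0.13 over LINC genes and 0.00 over all genes. With DESeq2 in place of edgeR, 12 LINC genes were higher and 20 lower.

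Several LINC genes were higher in lung-recovered cells, among them 1 without a count in the dish-grown clone. LINC00528 had 2.48, 2.74 and 2.63 CPM in lung-recovered cells, from 187 counts, against no count in ITGB4-low clone 1. With a floor of 3 counts over the dish-grown libraries, it was at least 58.2-fold higher in lung-recovered cells. LINC01980 had 2.56, 2.98 and 3.01 CPM in lung-recovered cells, against 0.583, 0.516 and 0.443 CPM in ITGB4-low clone 1 (log2 fold change 2.47 ± 0.23, adjusted p = 6.55e-08). LINC01287 had 15.1, 16.2 and 14.8 CPM in lung-recovered cells, against 6.17, 7.88 and 7.64 CPM in ITGB4-low clone 1 (log2 fold change 1.08 ± 0.09, adjusted p = 1.99e-08). The groups were well apart in each. LINC00346 (ENSG00000255874, chr13:110863987-110870251, minus strand) had 13.1, 15.3 and 14.4 CPM in lung-recovered cells, against 6.56, 7.41 and 6.36 CPM in ITGB4-low clone 1 (log2 fold change 1.08 ± 0.10, adjusted p = 9.47e-08). LINC02323 (ENSG00000259230, chr14:102545254-102555826, plus strand) had 4.92, 5.30 and 5.04 CPM in lung-recovered cells, against 2.53, 1.73 and 2.37 CPM in ITGB4-low clone 1 (log2 fold change 1.19 ± 0.16, adjusted p = 1.08e-05). Both genes about doubled, with no overlap between groups. LINC02188, LINC00899, LINC02289 and LINC01029 rose by 2.39 ± 0.49, 1.57 ± 0.42, 1.27 ± 0.32 and 1.21 ± 0.26 on the log2 scale. LINC02253 had 18 counts in lung-recovered cells against 3 in ITGB4-low clone 1, a ratio of 5.60 with a 95% counting interval of 1.63 to 29.7. Its call (adjusted p = 0.0224) ended without ITGB4-low replicate 3 (adjusted p = 0.101), without lung-recovered replicate 3 (0.0781) and in DESeq2 (0.0549).

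The LINC genes that fell in lung-recovered cells did so mostly by less than 2-fold. LINC01550 (ENSG00000246223, chr14:97925610-97978124, minus strand) had 0.0420, 0.189 and 0.113 CPM in lung-recovered cells, against 0.437, 1.03 and 0.644 CPM in ITGB4-low clone 1 (log2 fold change -2.60 ± 0.54, adjusted p = 0.00101), from 8 counts in the lung-recovered libraries. LINC00607 had 0.378, 0.189 and 0.301 CPM in lung-recovered cells, against 0.680, 1.45 and 1.09 CPM in ITGB4-low clone 1 (log2 fold change -1.86 ± 0.39, adjusted p = 0.00105). LINC02057 had 3.65, 3.59 and 3.57 CPM in lung-recovered cells, against 8.89, 5.44 and 8.01 CPM in ITGB4-low clone 1 (log2 fold change -1.05 ± 0.16, adjusted p = 4.86e-05). Groups did not overlap in any of the 3, and the libraries of LINC02057 were much closer together in lung-recovered cells than in the clone. LINC02202 fell by 1.57 ± 0.33 on the log2 scale (adjusted p = 0.00116). LINC00702 had a log2 fold change of -1.21 ± 0.38 (adjusted p = 0.0198) with overlapping groups, and its call ended without ITGB4-low replicate 2 or 3 (adjusted p = 0.0714 and 0.0862), without lung-recovered replicate 1 or 2 (0.0532 and 0.0782) and in DESeq2 (0.0575). LINC02475 and LINC01085 fell by 0.84 ± 0.19 and 0.92 ± 0.26. Without lung-recovered replicate 1 the call of LINC01085 ended (adjusted p = 0.0544).

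Among the fallen genes were several with many counts. LINC01133 had 32.6, 30.3 and 33.8 CPM in lung-recovered cells, against 35.2, 43.3 and 42.1 CPM in ITGB4-low clone 1 (log2 fold change -0.32 ± 0.07, adjusted p = 0.00223). LINC00662 had 33.4, 34.4 and 36.8 CPM in lung-recovered cells, against 44.1, 43.9 and 43.5 CPM in ITGB4-low clone 1 (-0.33 ± 0.06, adjusted p = 0.000142). LINC00511 had 66.3, 64.6 and 64.4 CPM in lung-recovered cells, against 80.1, 76.2 and 75.6 CPM in ITGB4-low clone 1 (-0.25 ± 0.05, adjusted p = 0.000293). These were modest declines without overlap between groups. LINC00707, LINC00839 and LINC01116 fell by 0.22 ± 0.06, 0.29 ± 0.06 and 0.37 ± 0.09 on the log2 scale. LINC00460, LINC01605 and LINC00958 did not pass the test, with log2 fold changes of 0.07 ± 0.07 (adjusted p = 0.544), -0.05 ± 0.07 (0.622) and 0.08 ± 0.05 (0.238). LINC00941 and LINC02381 had log2 fold changes of 0.21 ± 0.07 and 0.21 ± 0.08 (adjusted p = 0.0276 and 0.0391). LINC00941 lost its call without ITGB4-low replicate 1 or 2 or lung-recovered replicate 1 or 3 (adjusted p 0.0767 to 0.114), and LINC02381 without ITGB4-low replicate 1 or 3 or any 1 of the lung-recovered replicates (0.0572 to 0.150).

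Calls rested on small margins in some genes with few counts. LINC00552 had a log2 fold change of -0.90 ± 0.33 (adjusted p = 0.0461) in this comparison, which lost its call in 6 of the 8 fits that each left out 1 library (adjusted p 0.0503 to 0.184). LINC01619 (-0.79 ± 0.28, adjusted p = 0.0365) lost it in 5 of 8 (0.0518 to 0.178), LINC01186 (-0.82 ± 0.27, adjusted p = 0.0264) in 4 of 8 (0.0565 to 0.135) and LINC00638 (-0.75 ± 0.23, adjusted p = 0.0194) in 3 of 8 (0.0510 to 0.0966). LINC00632 had a log2 fold change of 0.72 ± 0.33 (adjusted p = 0.113), which passed the test without ITGB4-low replicate 3 (1.13, adjusted p = 0.0381).

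**Figure D2:**
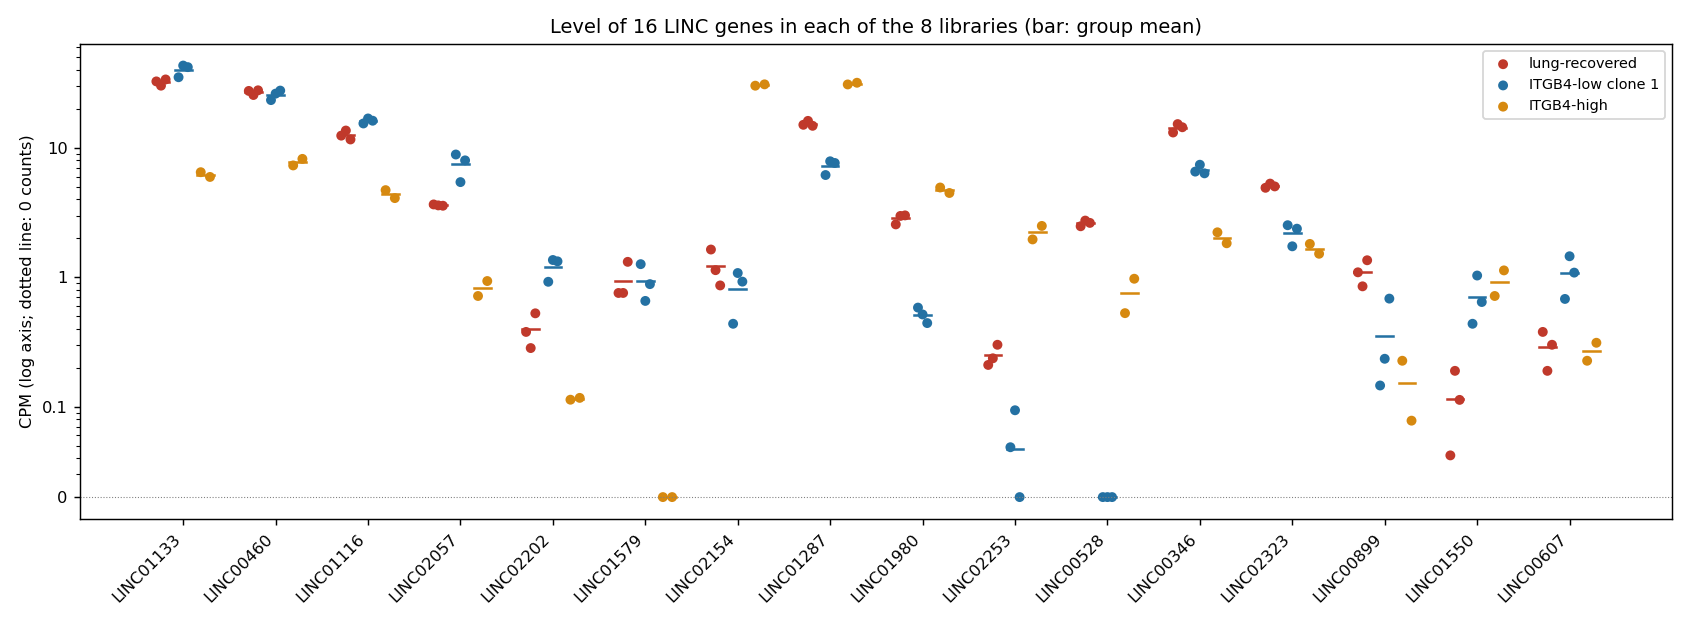
Level in CPM (log axis, with a dotted line for 0 counts) of 16 LINC genes in each library: lung-recovered in red, ITGB4-low clone 1 in blue and ITGB4-high in orange, with a bar at each group mean. LINC01133, LINC00460 and LINC01116 are high in both lung-recovered and ITGB4-low clone 1 libraries, LINC01287 and LINC01980 are at a level in lung-recovered cells between those of ITGB4-low clone 1 and ITGB4-high, and LINC00528 has 0 counts in every ITGB4-low clone 1 library.

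The third comparison sets lung-recovered cells against ITGB4-high cells, and shares its libraries with the other 2. Of the LINC genes, 44 were higher and 30 lower in lung-recovered cells (26.2% and 17.9%), against 26.2% and 25.0% of all genes. In either direction 44.0% were called, against 51.2% of all genes. At 2-fold or more, 24 were higher and 9 lower (14.3% and 5.36%), against 8.08% and 2.5% of all genes. The median log2 fold change was 0.04 over LINC genes and 0.01 over all genes.

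LINC00346 had 13.1, 15.3 and 14.4 CPM in lung-recovered cells, against 2.23 and 1.83 CPM in ITGB4-high (log2 fold change 2.81 ± 0.14, adjusted p = 3.76e-12). Its level in ITGB4-low clone 1 lay between these groups, with no overlap on either side. LINC02323 had 4.92, 5.30 and 5.04 CPM in lung-recovered cells, against 1.81 and 1.52 CPM in ITGB4-high (log2 fold change 1.60 ± 0.19, adjusted p = 7.64e-07). LINC00899 had 1.09, 0.851 and 1.35 CPM in lung-recovered cells, against 0.226 and 0.0779 CPM in ITGB4-high (2.82 ± 0.56, adjusted p = 0.000309). For both genes, ITGB4-low clone 1 and ITGB4-high overlapped and were not called different (adjusted p = 0.115 and 0.134). Without ITGB4-low replicate 2 or 1, those p-values were 0.0488 and 0.0457. LINC00528 had 2.48, 2.74 and 2.63 CPM in lung-recovered cells, against 0.528 and 0.974 CPM in ITGB4-high (1.80 ± 0.29, adjusted p = 5.03e-05), so the gene with no count in the dish-grown clone was higher after recovery from lung than in ITGB4-high cells.

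LINC01133, LINC00460, LINC01605 and LINC01116 were higher in lung-recovered cells than in ITGB4-high by 2.37 ± 0.11, 1.80 ± 0.10, 1.73 ± 0.10 and 1.51 ± 0.12 on the log2 scale. LINC02057 rose by 2.12 ± 0.26, LINC01836 by 2.32 ± 0.42, LINC01602 by 2.07 ± 0.39 and LINC00707 by 0.86 ± 0.07. LINC01579 had 69 counts in lung-recovered libraries, against none in ITGB4-high, and was at least 16.8-fold higher against a floor of 3 counts. LINC00702 (2.51 ± 0.71, adjusted p = 0.00584) lost its call without ITGB4-high replicate 1 (adjusted p = 0.0719), and LINC00552 (1.98 ± 0.55, adjusted p = 0.0051) without ITGB4-high replicate 2 (0.0751). LINC02202 (1.77 ± 0.59, adjusted p = 0.0168) lost it without either ITGB4-high replicate or lung-recovered replicate 3 (0.0735 to 0.0865) and in DESeq2 (0.0582).

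Other LINC genes stayed below their ITGB4-high level. LINC02154 had 1.64, 1.13 and 0.865 CPM in lung-recovered cells, against 30.3 and 31.0 CPM in ITGB4-high (log2 fold change -4.66 ± 0.16, adjusted p = 1.27e-14), and was not called against ITGB4-low clone 1 (0.55 ± 0.29, adjusted p = 0.176). LINC02253 had 0.210, 0.236 and 0.301 CPM in lung-recovered cells, against 1.96 and 2.49 CPM in ITGB4-high (-3.12 ± 0.36, adjusted p = 5.03e-07). LINC01287 had 15.1, 16.2 and 14.8 CPM in lung-recovered cells, against 30.9 and 31.9 CPM in ITGB4-high (-1.03 ± 0.08, adjusted p = 3.68e-09). For LINC01287 the lung-recovered level lay between the other groups without touching either, and the same held for LINC01980 (-0.72 ± 0.17 against ITGB4-high, adjusted p = 0.0012) and LINC02289 (-1.65 ± 0.24, adjusted p = 9.52e-06). LINC02188 had 0.756, 0.804 and 0.865 CPM in lung-recovered cells, against 0.830 and 0.857 CPM in ITGB4-high, and was not called (-0.06 ± 0.37, adjusted p = 0.911). LINC01550 fell by 2.98 ± 0.54, LINC02466 by 2.23 ± 0.35, LINC00632 by 1.55 ± 0.27 and LINC00638 by 1.10 ± 0.24 on the log2 scale.

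Over all genes, the share called rose with depth in each comparison, and deeper genes had smaller standard errors. Among LINC genes with 100 to under 300 counts, the median standard error was 0.37 on the log2 scale in ITGB4-low clone 1 against ITGB4-high, and among the 20 with 3000 or more it was 0.08. Of the 65 in the lowest range, 49.2% were called in that comparison, against 35.9% of all genes of that depth. Of the 59 with 300 to under 1000 counts, 39.0% were called against 48.7%, of the 24 with 1000 to under 3000 counts 62.5% against 57.6%, and of the 20 above that 55.0% against 65.3%. In lung-recovered cells against ITGB4-low clone 1, 55.0% of the 20 deepest LINC genes were called (3 higher and 8 lower), against 35.1% of genes of that depth. In the lower ranges, from shallow to deep, the shares were 27.7% against 18%, 22% against 27.7%, and 29.2% against 30.2%. In lung-recovered cells against ITGB4-high, again from shallow to deep, they were 36.9% against 30.3%, 37.3% against 44.4%, 62.5% against 52.2% and 65% against 60.2%. The median size of the log2 fold change in ITGB4-low clone 1 over ITGB4-high, from shallow to deep, was 0.78 for LINC genes against 0.57 for all genes of that depth, 0.41 against 0.47, 0.44 against 0.34 and 0.22 against 0.23. In share called and in size, the LINC genes were thus above the background in some ranges of depth and below it in others.

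**Figure D3:**
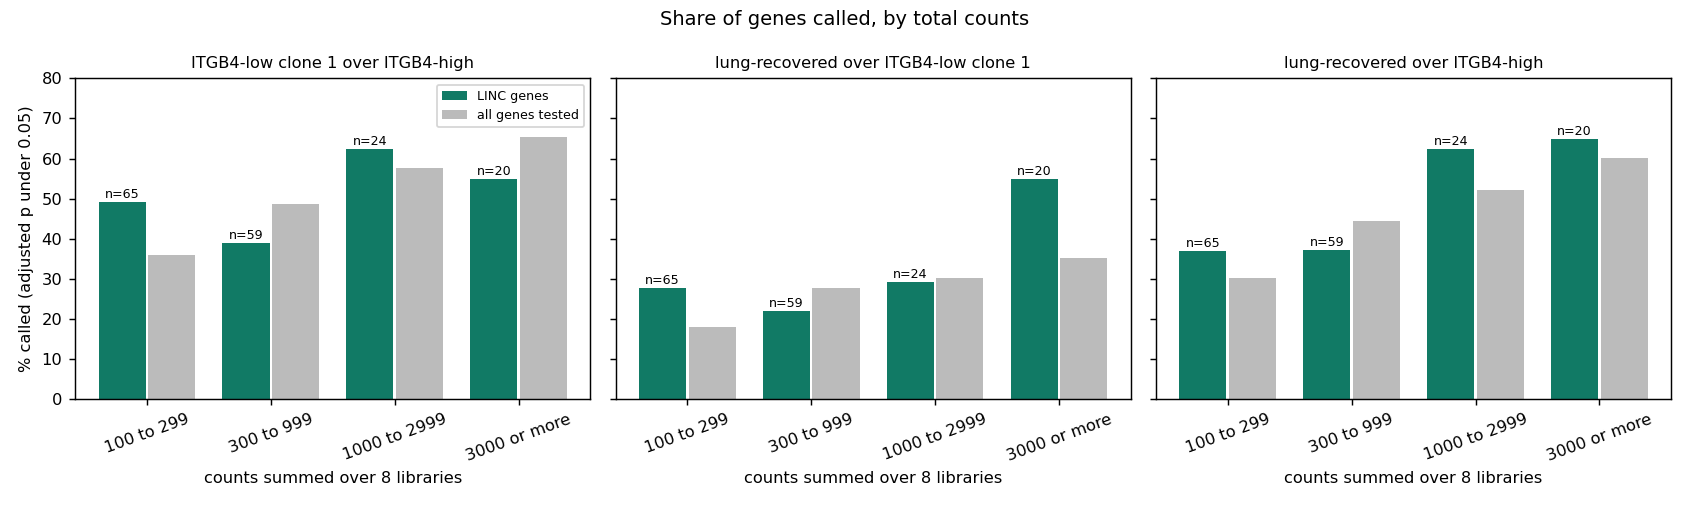
Percent of genes called in either direction (vertical axis) by counts summed over the 8 libraries, for LINC genes in green, with their number, and for all genes tested in grey. In lung-recovered cells over ITGB4-low clone 1, 55.0% of the 20 LINC genes with 3000 or more counts are called, against 35.1% of all genes of that depth.

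Of the 67 LINC genes with an overlapping exon or a near-identical stretch, 17.9% were called in lung-recovered cells against ITGB4-low clone 1, and of the other 101 genes 36.6%. Of all genes tested, 30.1% were called there. In ITGB4-low clone 1 against ITGB4-high the shares were 44.8% and 50.5%, against 56.2% of all genes, and in lung-recovered cells against ITGB4-high 40.3% and 46.5%, against 51.2%. None of the 168 LINC genes lay in the first 22 Mb of chromosome 17, where 85.6% of 215 protein-coding genes were higher in ITGB4-low clone 1 than in ITGB4-high. On chromosome 3 past 150 Mb lay 4 LINC genes, which went both ways in ITGB4-low clone 1 over ITGB4-high. LINC00888 rose by 1.10 ± 0.16 on the log2 scale, LINC02015 and LINC02043 fell by 0.42 ± 0.11 and 1.21 ± 0.40, and LINC01322 was not called (-0.25 ± 0.15, adjusted p = 0.18). Of the 159 protein-coding genes there, 13.8% were higher and 66.7% lower. Copy number was not measured.

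Many LINC genes lie beside a protein-coding gene, and noncoding and coding transcripts can share a start region or a chromatin environment. The nearest tested protein-coding gene overlapped 20 LINC genes, lay within 5 kb of 25 more, from 5 to 50 kb away for 50, and farther for 73. Across genes, the log2 fold changes of LINC gene and neighbour in ITGB4-low clone 1 over ITGB4-high had a Spearman rho of 0.58 in the overlapping class, 0.59 within 5 kb, 0.53 from 5 to 50 kb and -0.03 farther away. For lung-recovered cells over ITGB4-low clone 1 the values were 0.52, 0.33, 0.17 and 0.09, in the same order of distance. For lung-recovered cells over ITGB4-high they were 0.49, 0.43, 0.43 and 0.10. These are descriptions, since neighbours share a locus, libraries and depth and are not independent. Where exons overlap, the counts may also hold reads of both genes, since the strand setting of the counting is not given. The part of such reads was not tested. Where both were called within 50 kb in ITGB4-low clone 1 over ITGB4-high, the direction was the same for 4 of 7 overlapping pairs, 5 of 6 within 5 kb and 18 of 22 from 5 to 50 kb, and farther away for 14 of 28.

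**Figure D4:**
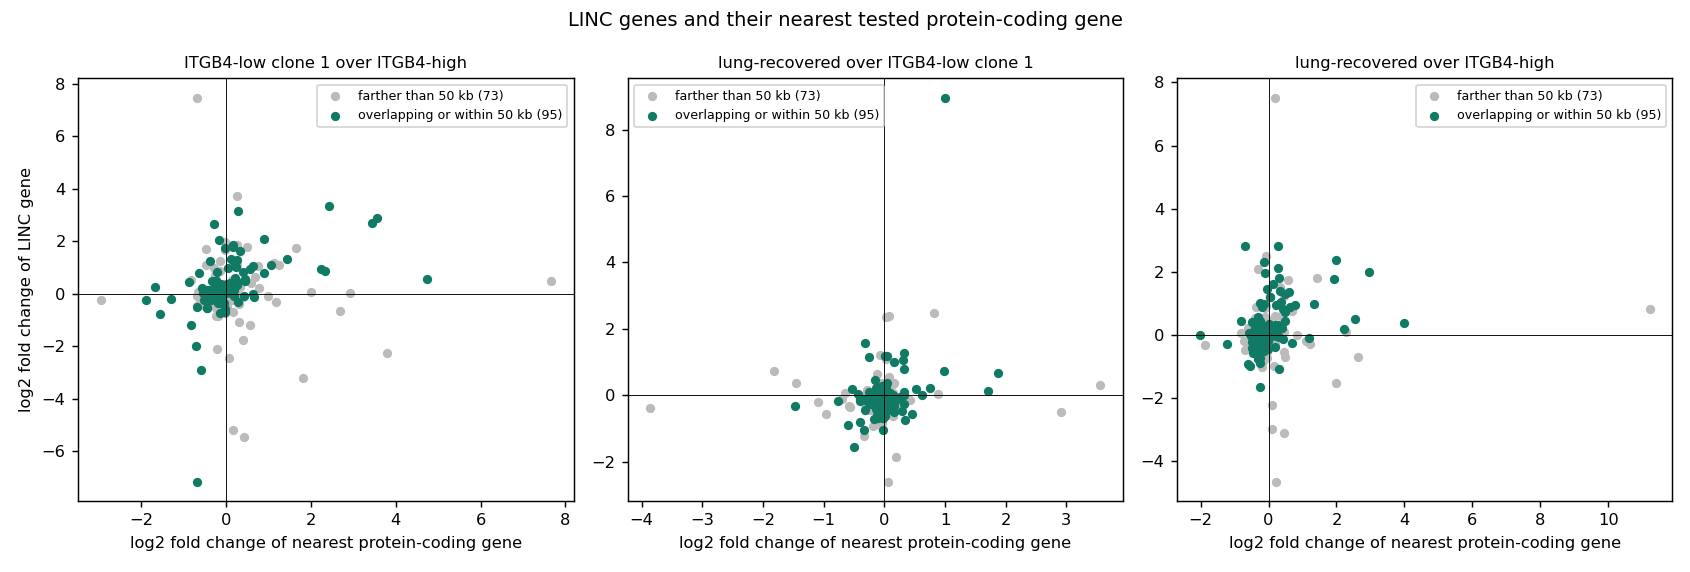
Log2 fold change of each LINC gene (vertical axis) against that of its nearest tested protein-coding gene (horizontal axis) in the 3 comparisons, with the 95 pairs that overlap or lie within 50 kb in green and the 73 farther pairs in grey. Green points with a large rise of the neighbour in ITGB4-low clone 1 over ITGB4-high, such as those of LINC01133, LINC00552 and LINC02202, also lie above 0.

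LINC02202 and EBF1, which encodes a transcription factor of B-cell development, start 722 bases apart on opposite strands. EBF1 had 10.2, 11.5 and 10.5 CPM in lung-recovered cells, 13.5, 15.9 and 16 CPM in ITGB4-low clone 1 and 2.72 and 2.96 CPM in ITGB4-high. Its log2 fold changes were 2.42 ± 0.13 in ITGB4-low clone 1 over ITGB4-high, -0.50 ± 0.09 in lung-recovered over ITGB4-low clone 1 and 1.91 ± 0.14 in lung-recovered over ITGB4-high. Both genes were therefore highest in ITGB4-low clone 1 and lowest in ITGB4-high, at levels that did not overlap in any pair of groups. LINC02202 had only 3 counts in each ITGB4-high library, and it shares 351 exon bases on the same strand with AC134043.2. LINC00528 lies 2552 bases from BID, a gene of the apoptosis pathway on the opposite strand, which fell by 0.69 ± 0.06 in ITGB4-low clone 1 against ITGB4-high, and rose by 1.00 ± 0.06 in lung-recovered cells against ITGB4-low clone 1. LINC01133 lies 6964 bases from SLAMF9, a receptor of the SLAM family, with log2 fold changes of 3.45 ± 0.29 and -1.46 ± 0.20 in those comparisons. LINC00552 lies 8151 bases from TMEM255B (3.56 ± 0.13 and -0.60 ± 0.08), and LINC00460 lies 105416 bases from EFNB2, the ligand ephrin-B2 (1.65 ± 0.08 and -0.22 ± 0.06).

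In all, 22 LINC genes start within 2 kb of a protein-coding gene on the opposite strand. In ITGB4-low clone 1 over ITGB4-high, 7 of these LINC genes and 13 of the partners were called, where 56.2% of all genes were. Both were called for 5 pairs, 4 of them in the same direction. In lung-recovered over ITGB4-low clone 1, 4 LINC genes and 6 partners were called, where 30.1% of all genes were, and both for 3 pairs, each in the same direction. In lung-recovered over ITGB4-high, 7 LINC genes and 13 partners were called, where 51.2% of all genes were, and both for 6 pairs, each in the same direction. LINC01137 starts 141 bases from ZC3H12A, which encodes an RNase that degrades inflammatory mRNAs. ZC3H12A had 51.2, 53.3 and 51.8 CPM in lung-recovered cells, 14.0, 14.0 and 14.8 CPM in ITGB4-low clone 1 and 43.8 and 40.6 CPM in ITGB4-high. It fell by 1.56 ± 0.07 on the log2 scale in ITGB4-low clone 1 against ITGB4-high and rose by 1.87 ± 0.06 in lung-recovered cells against ITGB4-low clone 1. LINC01137 had 3.82, 5.34 and 3.53 CPM in lung-recovered cells, 1.80, 2.39 and 3.58 CPM in ITGB4-low clone 1 and 5.05 and 3.86 CPM in ITGB4-high. Its log2 fold changes were -0.76 (adjusted p = 0.00939) and 0.67 (adjusted p = 0.0246) in those comparisons, the second with overlapping groups, and it was chosen for its partner after values were seen. For other LINC genes the nearest protein-coding gene lies farther off. LINC02154, LINC01287 and LINC02323 have no tested protein-coding gene within 5 kb, and their nearest ones had log2 fold changes of 0.16 ± 0.06 (TMSB4X, adjusted p = 0.043), -0.22 ± 0.10 (ACTR3B, 0.075) and 0.09 ± 0.10 (ANKRD9, 0.47) in ITGB4-low clone 1 over ITGB4-high.

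**Figure D5:**
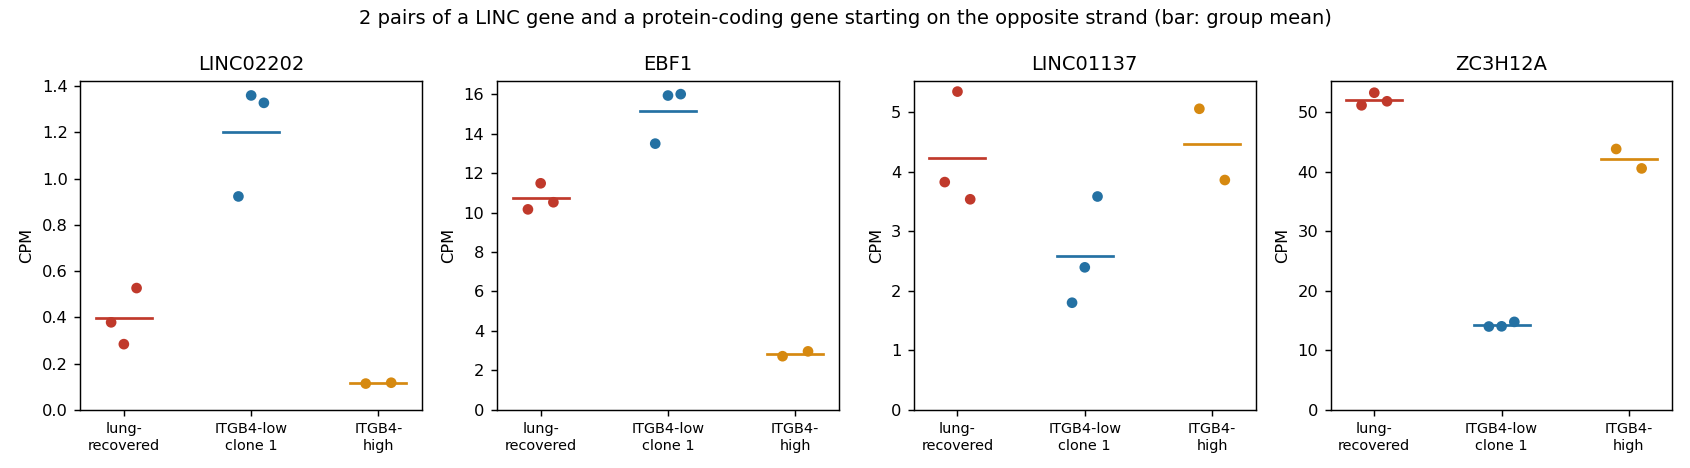
Level in CPM (linear axes from 0, each with its own scale) of LINC02202 and EBF1 and of LINC01137 and ZC3H12A in each lung-recovered, ITGB4-low clone 1 and ITGB4-high library, with a bar at the group mean. EBF1 and LINC02202 are highest in ITGB4-low clone 1, whereas ZC3H12A is lowest there, at 14.0 to 14.8 CPM.

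Long noncoding RNAs named outside the LINC scheme were counted for comparison from a list of 53, of which 40 were tested. In ITGB4-low clone 1 over ITGB4-high, 6 were higher and 13 lower, where 28.6% and 27.6% of all genes were. In lung-recovered over ITGB4-low clone 1, 3 were higher and 10 lower, where 14.7% and 15.4% of all genes were. In lung-recovered over ITGB4-high, 5 were higher and 21 lower, where 26.2% and 25.0% of all genes were. The snoRNA hosts SNHG5, SNHG6, GAS5 and ZFAS1 fell by 0.87 ± 0.05, 0.79 ± 0.07, 0.74 ± 0.09 and 0.62 ± 0.08 on the log2 scale in ITGB4-low clone 1 against ITGB4-high. Other SNHG genes of the list went both ways there. SNHG3, SNHG7, SNHG12 and SNHG16 were lower, and SNHG1, SNHG8 and SNHG17 were not called. SNHG15 and SNHG14 were higher, by 0.30 ± 0.05 and 0.15 ± 0.06. Among those 40 RNAs, MIR100HG, host of a microRNA cluster, rose to about double, with 98.4, 98.6 and 90.0 CPM in ITGB4-low clone 1 against 46.9 and 45.8 CPM in ITGB4-high (1.04 ± 0.06). MALAT1 and NEAT1 did not pass the test in any comparison.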

How the data were processed

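RNA-seq reads were counted per gene by the authors, and the deposited table holds these counts as whole numbers, with no normalisation, for 58336 Ensembl gene identifiers in 8 libraries. The alignment used STAR 2.7.1a and the genome build hg38, per the submitters' processing notes. What program counted the reads, with which strand setting and annotation, was not given in the sources used here, while libraries were made with strand-marking dUTP, per the labels' protocols. Symbols, types and coordinates came from GENCODE release 29, which matched 58216 identifiers and not the other 120.

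Groups and replicate numbers came from sample titles. All libraries entered 1 fit in edgeR 4.0.16 (R 4.3.3), with filterByExpr, which kept 15220 genes holding 99.9% of counts and all 168 LINC genes, and with TMM factors. Each of the 3 differences went through edgeR's quasi-likelihood F test, with Benjamini-Hochberg adjustment over all genes tested and a call at an adjusted p under 0.05. Standard errors are log2 fold changes over the square root of F. The fit had 5 residual degrees of freedom and a common biological coefficient of variation of 0.0452. The sample titles call the replicates biological, but the labels name no culture or animal for any of them. How far the spread that p-values measure is biological or technical is therefore not known. Libraries of a group differed by more than sampling noise (chi-square over degrees of freedom, 1.57 to 6.13).

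Levels are CPM after TMM scaling. A group with no count was set to a floor of 3 counts over the group, and intervals are exact binomial at 95%. Folds given as "at least" use this floor and take the counts of the other group as observed. The counting error of that other group is left out of them. Neither the floor nor the intervals cover more than counting error, as reads carried no recorded molecular identifier. Overlaps were taken from GENCODE exons, and a near-identical stretch was one of at least 200 bases at 98% identity or more in a transcript of another gene. The nearest protein-coding gene was sought among those tested.

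The text names the 10 LINC genes highest per kilobase, the 8 largest rises and falls per comparison among called genes without overlap, members of a list with published work, genes with 0 to 3 counts in a group, and the edges of the count limit. The members, lists, motifs and rules were chosen with earlier results of these data known. Alternatives were RLE and upper-quartile scaling, no filter on low counts, DESeq2 1.42.0, limma-voom (limma 3.58.1), fits of only the groups compared, the replicate number as a block, and leaving out each library.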

Additional observations from a re-analysis of the deposited data

How the results depend on the processing

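No named LINC gene reversed its direction where it was called. Of 1885 values under the alternatives, 1795 were either called in both fits in the same direction or uncalled in both. Those uncalled in both lay within the standard error of the reported value, and their sign was not compared. A further 83 lost the call, 3 gained one and 4 uncalled ones moved by more than that. With DESeq2, the LINC genes called lower in lung-recovered cells against ITGB4-low clone 1 numbered 20, against 31 in edgeR; the cause was not tested. In that comparison DESeq2 called 12 higher, against 18 in edgeR. In ITGB4-low clone 1 over ITGB4-high it called 43 higher and 20 lower, against 57 and 24. In lung-recovered over ITGB4-high it called 31 higher and 26 lower, against 44 and 30. Leaving out 1 library at a time gave 41 to 57 LINC genes higher and 22 to 25 lower in ITGB4-low clone 1 over ITGB4-high, 13 to 18 higher and 21 to 32 lower in lung-recovered over ITGB4-low clone 1, and 31 to 44 higher and 25 to 31 lower in lung-recovered over ITGB4-high. Deviations of same-numbered libraries from their group means were only weakly correlated (r from -0.0748 to 0.0400). With so few libraries per group, these values cannot decide whether the numbers pair libraries. With the replicate block, the counts were 52 and 24, 17 and 27, and 41 and 28, in the same order. RLE or upper-quartile scaling moved the median of all genes by at most 0.02 on the log2 scale. Depth limits the LINC genes under 300 counts, whose median standard error was 0.37 on the log2 scale in ITGB4-low clone 1 over ITGB4-high.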
